A study of Physcomitrium patens with 4 samples.

Results

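The genotype dependence of the red light response was described in Physcomitrium patens as a ratio of folds, that is, the red light over dark fold in the pubs hy2 double mutant divided by the same fold in wild type. A ratio above 1 means a larger fold in pubs hy2 and a ratio below 1 a smaller one. The ratio was computed for the 18654 genes of 32273 that had at least 50 reads over the 4 libraries and under 10% multi-mapping reads in each of them, called singly mapped below. The libraries came from pubs hy2 protonema after 1 hour of red light, pubs hy2 protonema in the dark, wild-type protonema after 1 hour of red light and wild-type protonema in the dark, with 1 library per group. All 4 were of the ecotype Gransden2004, and the labels give chloronema as the tissue, an age of 10 days and a dark period of 3 days. The light source emitted at 660 nm with 5 μmol m-2 s-1, at a growth temperature of 25 °C. The labels describe pubs hy2 as phytochrome-deficient and do not say how many mutant lines were grown or whether libraries pooled cultures. No dark library was taken an hour later, so a red light fold cannot be told apart from the effect of the elapsed hour, in either genotype.

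Phytochromes are photoreceptors that switch between a red-absorbing and a far-red-absorbing form, and they need a linear tetrapyrrole, a bilin, bound to the protein to do so. PUBS and HY2 are ferredoxin-dependent reductases that turn biliverdin into such bilins. Loss of both leaves the phytochrome proteins without their normal chromophore, while flavin-based receptors (cryptochromes and phototropins) and chlorophyll do not depend on these enzymes. Protonema is the filamentous stage of a moss, and chloronema is its chloroplast-rich cell type.

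Reads summed over genes ranged from 15098942 to 24560044 per library, and 90.3% to 91.8% of them lay on the 18654 genes. Of the singly mapped genes, 12042 had under 50 reads, and 6707 of these had 0. At the limit, 32 genes had exactly 50 reads and were kept, and 35 had 49 and were not. At the other limit, 147 of the genes kept had a multi-mapping share of 5% or more, and 84 genes with enough reads had a share from 10% to 15% and were left out. Identifiers in the files matched the RefSeq gene table used here in 0 of 32273 cases, so genes carry identifiers alone, and neither the tissue markers nor PUBS and HY2 were checked by name. In RNA from whole tissue, fewer cells of a type and less RNA per cell cannot be told apart.

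For most genes the red light folds of the genotypes lay within 2-fold of each other. The log2 ratio had a median of 0.07, quartiles of -0.27 and 0.44, and 5th and 95th percentiles of -1.14 and 1.52. In 12317 genes (66.0%) the whole 95% counting interval of the ratio lay between 0.5 and 2. A size rule took a ratio as differing when it was at least 2 or at most 0.5 and its counting interval excluded 1. By this rule the ratio was above 1 in 1636 genes (8.77% of the 18654) and below 1 in 944 (5.06%), together 13.8%. The interval excluded 1 in 9875 genes (52.9%), but in 7295 of these the difference was smaller than 2-fold. The other 3757 genes (20.1%) were undecided, neither past the rule nor bounded within 2-fold, and had a median of 287 reads over the libraries against 2671 for the bounded genes. Ratios of at least 4 passed in 466 genes and ratios of at most 0.25 in 261, and at 8-fold the numbers were 158 and 91. With 1 library per group there is no replicate error, so no p-value is given, and every count compares these libraries and not the conditions at large. If every library is taken to vary with a biological coefficient of variation of 0.2, the counts become 1051 above and 595 below.

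**Figure D1:**
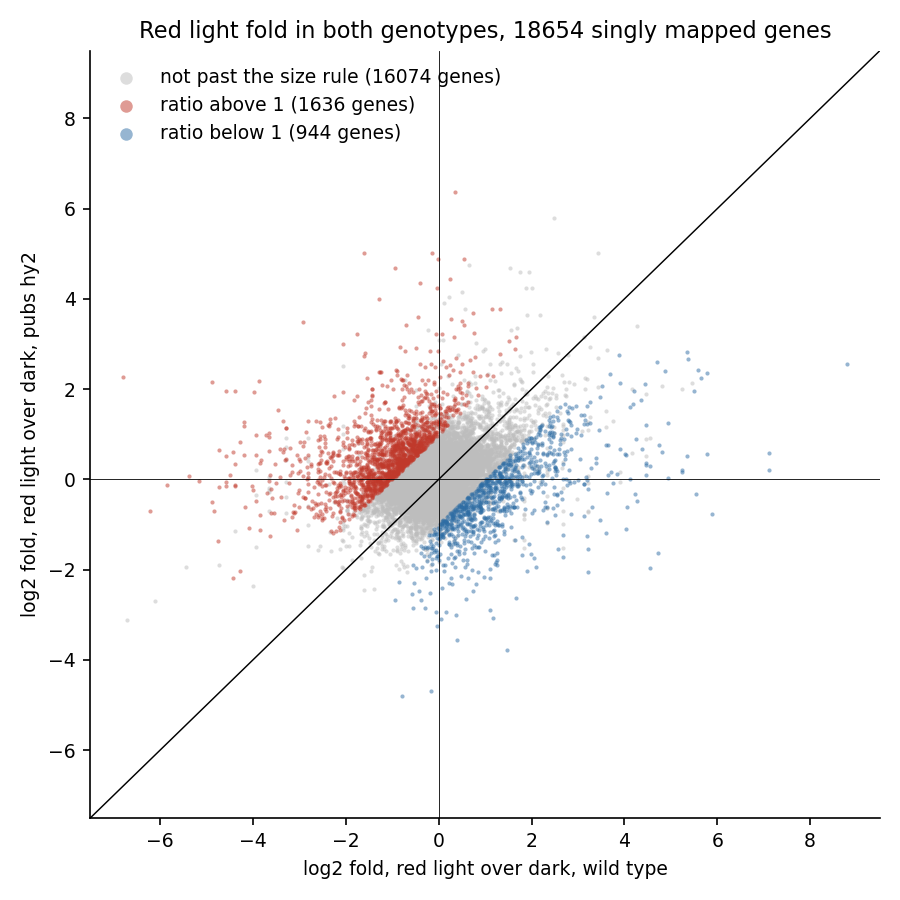
Each point is 1 of the 18654 genes, with the log2 red light over dark fold in pubs hy2 on the vertical axis and in wild type on the horizontal axis, after adding 0.5 to each count. Points on the diagonal have equal folds. The 1636 red points have a ratio above 1, the 944 blue points a ratio below 1, and the other 16074 are grey.

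Most ratios past the rule came with a response of the wild-type library that was smaller, missing or opposite in pubs hy2. These were 855 of the 1636 ratios above 1 and 533 of the 944 below 1. The wild-type libraries also enter the ratio, so these counts describe how the ratios are made up. The largest class of the 1636 genes with a ratio above 1 held 753 genes that were at least 2-fold lower after red light in wild type and did not pass in pubs hy2. Their median log2 fold was 0.06 in pubs hy2, against -1.59 in wild type. A further 91 genes were higher after red light in pubs hy2 and lower in wild type, and 11 were lower in both but less so in pubs hy2. In the other direction, 426 of the 944 genes with a ratio below 1 were higher after red light in wild type and did not pass in pubs hy2, with medians of 0.03 in pubs hy2 and 1.67 in wild type. Another 69 were higher in both genotypes with the smaller fold in pubs hy2, at medians of 1.32 in pubs hy2 and 2.83 in wild type. The remaining class with opposite folds held 38 genes that were lower in pubs hy2 and higher in wild type.

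Responses of pubs hy2 alone made up a smaller number. The first class held 288 genes that were higher after red light in pubs hy2, did not pass in wild type and had a ratio above 1, with medians of 1.48 in pubs hy2 and -0.21 in wild type. Lower in pubs hy2 alone, with a ratio below 1, were 183 genes, at medians of -1.43 in pubs hy2 and 0.23 in wild type. These 471 genes were mostly read at low depth. With at least 1000 reads required over the libraries, a limit chosen after seeing the data, 62 were left. Last came genes that passed in neither genotype, 484 of them with the ratio above 1 and 228 with the ratio below 1. For the 484 genes the median log2 folds were 0.64 in pubs hy2 and -0.70 in wild type. For the 228 they were -0.69 in pubs hy2 and 0.63 in wild type. These opposite signs follow from the choice of the genes and are not a separate result. Folds that both stay under the limit of the size rule can differ by that limit only in opposite directions. Exempt are genes with a fold that reached the limit but had a counting interval including 1.

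Genes reduced and genes induced in the wild-type library kept different amounts of their fold in pubs hy2. After red light 1245 genes (6.67%) were lower in wild type, and of these 855 (68.7%) had a ratio above 1, against 8.77% of all 18654 genes, and 0 had a ratio below 1. Another 109 were bounded within 2-fold and 281 were undecided. Higher in wild type were 1108 genes (5.94%), of which 533 (48.1%) had a ratio below 1, against 5.06% of all genes, and 9 had a ratio above 1. Here 255 were bounded within 2-fold and 311 were undecided. The wild-type libraries that chose these genes also enter the ratio, so both shares lie above the background in part by that choice. The folds in pubs hy2 come from libraries that played no part in it. There the median log2 fold was -0.13 for the 1245 genes, with 58.5% of them below 0 (48.0% of all genes), and 0.56 for the 1108 genes, with 77.9% above 0 (52.0% of all genes). By the 2-fold rule, 295 of the 1108 were also higher in pubs hy2, which is 26.6% of these and 32.3% of the 913 genes higher in pubs hy2. Of the 1245, 85 were also lower in pubs hy2, which is 6.83% of these and 18.0% of the 471 genes lower in pubs hy2. The background for pubs hy2 was 4.89% higher and 2.52% lower. Chosen by the pubs hy2 libraries, the 913 genes had a median log2 fold of 0.43 in wild type and the 471 genes one of -0.24, so there too the genes that were higher kept the larger fold.

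The fold in pubs hy2 was larger for larger inductions in wild type, up to a log2 fold of 2 to 3 there, and showed no such order for reductions. Among genes higher in wild type, those with log2 folds from 1 to 1.5 there (531 genes) had a median of 0.41 in pubs hy2. For folds from 1.5 to 2 (259 genes) the median in pubs hy2 was 0.72, and for folds from 2 to 3 (212 genes) it was 0.91. The 106 genes with wild-type log2 folds of at least 3 had the same median in pubs hy2, 0.91, against 3.91 in wild type, or 3.54 where libraries at 0 reads are taken at the floor of 3 counts. Among genes lower in wild type the median in pubs hy2 was -0.15 for log2 folds from -1 to -1.5 (665 genes), -0.11 from -1.5 to -2 (305 genes), -0.09 from -2 to -3 (186 genes) and -0.07 at -3 or below (89 genes). Chosen the other way round, the 529 genes with log2 folds from 1 to 1.5 in pubs hy2 had a median of 0.32 in wild type, the 207 genes from 1.5 to 2 had 0.63, the 131 genes from 2 to 3 had 0.67 and the 46 genes at 3 or above had 0.54. For genes lower in pubs hy2 the wild-type median was -0.32 for log2 folds from -1 to -1.5 (324 genes), -0.15 from -1.5 to -2 (97 genes), -0.06 from -2 to -3 (41 genes) and 0.06 at -3 or below (9 genes). The fold was thus smaller in the genotype that did not choose the genes, whichever genotype chose them. Genes chosen for passing a limit in some libraries tend to have smaller folds in others, so this arises partly by the choice. For reductions the median in the other genotype moved towards 0 as the reduction grew, and in wild type past it. These groups were not split by depth.

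**Figure D2:**
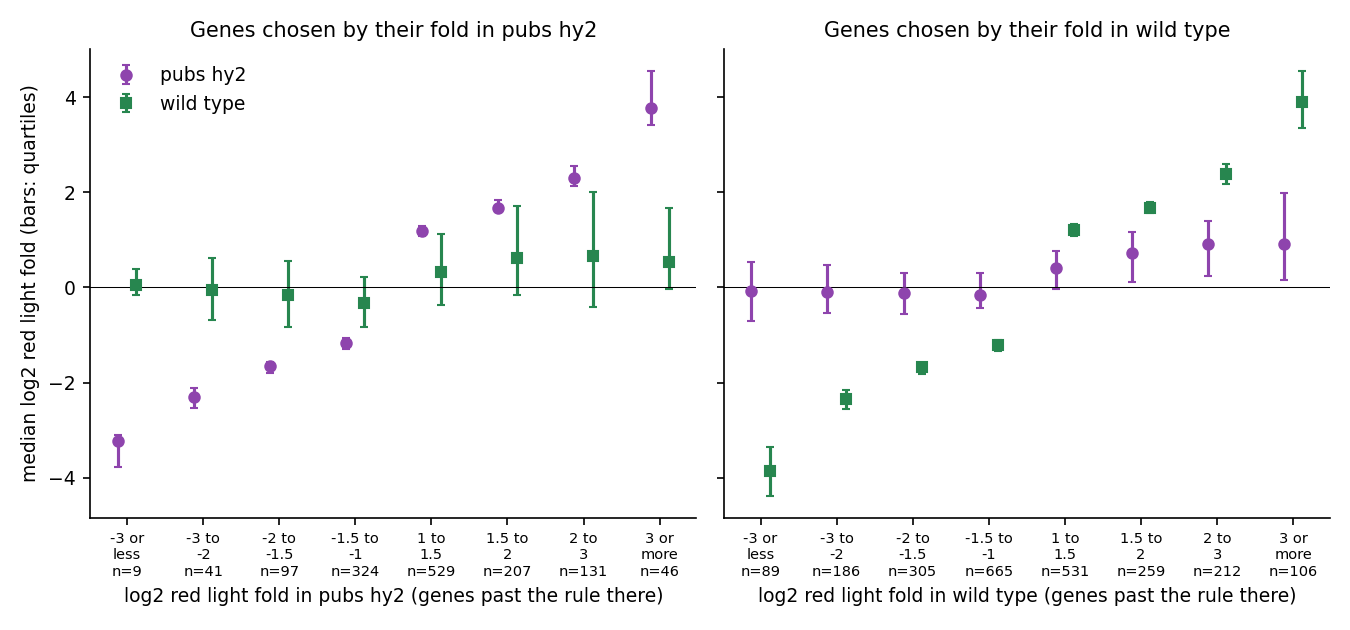
Points are median log2 red light folds in pubs hy2 (circles) and wild type (squares), with bars from the lower to the upper quartile, for genes past the 2-fold rule in pubs hy2 (left) or in wild type (right), grouped by the log2 fold in the genotype that chose them. In the right panel the pubs hy2 medians climb to 0.91 with the wild-type induction and stay between -0.15 and -0.07 for every size of reduction. In the left panel the wild-type medians lie between 0.32 and 0.67 for induced genes and between -0.32 and 0.06 for reduced genes.

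For genes chosen by wild type, depth changed the extent of this difference between induced and reduced genes but not its direction. With at least 1000 reads, 578 genes were higher in wild type, with a median log2 fold of 0.63 in pubs hy2 and 1.46 in wild type. Of them, 88.8% had a fold above 1 in pubs hy2, against 52.3% of all 11995 genes at this depth. Another 431 were lower in wild type, with medians of -0.24 in pubs hy2 and -1.36 in wild type. Of these, 73.3% had a fold below 1 in pubs hy2, against 47.7% of the 11995. A ratio below 1 was then found for 43.6% of the 578, against 2.56% of the 11995 genes at this depth, and a ratio above 1 for 63.1% of the 431, against 4.11%. At this depth the genes higher in pubs hy2 were 290, and 171 of them (59.0%) were also higher in wild type, which is 29.6% of the 578. Over all 11995 genes, 2.42% were higher in pubs hy2 and 4.82% in wild type. For the 290 genes the median log2 fold was 1.32 in pubs hy2 and 1.19 in wild type, and 127 (43.8%) were bounded within 2-fold, while the ratio was above 1 in 62 and below 1 in 55. The genes lower in pubs hy2 were 43, of which 16 (37.2%) were also lower in wild type, or 3.71% of the 431. The shares over all 11995 genes were 0.36% lower in pubs hy2 and 3.59% lower in wild type. For the 43 genes the median log2 fold was -1.14 in pubs hy2 and -0.65 in wild type. Of these, 23 (53.5%) were bounded within 2-fold, while the ratio was above 1 in 5 and below 1 in 9. Chosen by pubs hy2 at this depth, the reduced genes thus had the larger bounded share. The induced genes kept the larger median fold in wild type.

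The same ratio can be read as a genotype difference that changes with light. Of the 1636 genes with a ratio above 1, 552 were in the dark lower in pubs hy2 and in red light did not differ between the genotypes by the 2-fold rule, with median log2 differences of -0.09 in red light and -1.66 in the dark. Another 459 were higher in pubs hy2 in red light and did not differ in the dark (medians 1.71 in red light and 0.00 in the dark), 200 were higher in pubs hy2 under both conditions and 88 lower under both, and 74 were higher in red light and lower in the dark. The other 263 passed under neither condition, with medians of 0.61 in red light and -0.69 in the dark. Among the 944 genes with a ratio below 1, 357 were lower in pubs hy2 in red light alone (medians -1.65 in red light and -0.08 in the dark), and 239 were higher in the dark alone (medians 0.16 in red light and 1.75 in the dark). Another 148 were higher under both conditions, 33 were lower under both, 24 were lower in red light and higher in the dark, and 143 passed under neither (medians -0.73 in red light and 0.62 in the dark). The background was 15.3% of genes higher and 11.5% lower in pubs hy2 in red light, and 13.0% higher and 13.2% lower in the dark. These comparisons share their libraries with the ratio, so the counts describe how each ratio is made up.

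In 1035 of the 1636 genes with a ratio above 1 (63.3%) and in 563 of the 944 below 1 (59.6%), 3 of the 4 levels lay within 2-fold of each other. The remaining library, called the library apart, lay above or below all 3, at any distance from them. For ratios above 1 the library apart was most often wild type in red light, with the low level in 372 genes, and wild type in the dark, with the high level in 314. In pubs hy2 the dark library was the low one in 256 genes and the red light library the high one in 93. For ratios below 1, wild type in red light was high in 168 genes and wild type in the dark low in 164. The pubs hy2 red light library was low in 160 genes and the pubs hy2 dark library high in 71. Since no distance was required, such a gene does not always rest on the library apart alone. Where it does, there is no replicate for that library. The share of all 18654 genes with a library apart is not given here. This grouping was chosen after the data were seen.

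Single genes show how an induction that was weaker or did not pass in pubs hy2 looked. Levels below are CPM, reads scaled by the library total over genes, and are compared within a gene, and the folds and ratios of single genes are given without the added 0.5. Pp1s155_102V6 had 24.5 CPM in red light and 10.3 in the dark in pubs hy2, against 136.0 CPM in red light and 4.38 in the dark in wild type. Wild type in red light stood above the other 3 levels. The fold was 2.37 (95% counting interval 1.98 to 2.85) in pubs hy2 and 31.0 (24.8 to 39.4) in wild type, a ratio of 0.0763 (0.0565 to 0.103), so the induction passed in both genotypes and was smaller in pubs hy2. Pp1s32_270V6 had 21.6 CPM in red light and 16.8 in the dark in pubs hy2, against 18.2 in red light and 0.797 in the dark in wild type. Here the pubs hy2 levels lay at the induced level of wild type already in the dark. The fold was 1.29 (1.10 to 1.502) in pubs hy2 and 22.8 (13.4 to 42.0) in wild type, a ratio of 0.0565 (0.0300 to 0.0985).

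Pp1s11_289V6 stood higher in pubs hy2 than any wild-type level. It had 820.0 CPM in red light and 764.8 in the dark in pubs hy2, against 112.3 in red light and 8.88 in the dark in wild type. Its fold was 1.07 (1.05 to 1.10) in pubs hy2 and 12.7 (10.8 to 15.0) in wild type, a ratio of 0.0848 (0.0716 to 0.0998). In Pp1s1_366V6, a short gene of 0.162 kb, there were 698 reads in red light and 577 in the dark in pubs hy2, against 98 in red light and 1 in the dark in wild type. The single dark read leaves a wide interval, with a ratio of 0.0114 (0.000284 to 0.0653). Pp1s213_86V6, of 0.207 kb, had 19 reads in red light and 19 in the dark in pubs hy2, against 151 in red light and 6 in the dark in wild type, a ratio of 0.0365 (0.0109 to 0.113). As in Pp1s155_102V6, the wild-type red light library was the high one. Pp1s122_29V6 had 12 reads in red light and 50 in the dark in pubs hy2, against 183 in red light and 41 in the dark in wild type. Its dark levels were close, at 3.31 CPM in pubs hy2 and 2.33 CPM in wild type, and the libraries parted in red light, with a ratio of 0.0494 (0.0222 to 0.106).

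A reduction of wild type that did not pass in pubs hy2 was seen in 3 of the 6 genes that ranked highest by the interval bound of the ratio nearest to 1. Pp1s563_1V6 had 16.2 CPM in red light and 10.1 in the dark in pubs hy2, against 2.81 in red light and 30.4 in the dark in wild type. The fold was 1.61 (1.33 to 1.96) in pubs hy2 and 0.0924 (0.0708 to 0.119) in wild type, a ratio of 17.4 (12.6 to 24.2). Both pubs hy2 levels lay between the wild-type levels. Pp1s223_38V6 had 7.57 CPM in red light and 7.02 in the dark in pubs hy2, against 0.529 in red light and 12.4 in the dark in wild type. Its level hardly differed between the pubs hy2 libraries, with a fold of 1.08 (0.842 to 1.39), against 0.0426 (0.0223 to 0.0745) in wild type, and the ratio was 25.3 (13.5 to 50.4). Pp1s49_2V6 had 11.1 CPM in red light and 7.29 in the dark in pubs hy2, against 0.285 in red light and 6.55 in the dark in wild type. The dark levels were alike, and the wild-type red light library, with 7 reads, was the one apart. The ratio was 34.9 (15.6 to 90.9).

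Folds past the rule in opposite directions were those of the 91 and the 38 genes counted above. Pp1s357_48V6 had 9.14 CPM in red light and 3.11 in the dark in pubs hy2, against 0.814 in red light and 9.11 in the dark in wild type, so the pubs hy2 level in red light was close to the wild-type level in the dark. Its fold was 2.94 (2.13 to 4.12) in pubs hy2 and 0.0894 (0.0532 to 0.143) in wild type, a ratio of 32.9 (18.2 to 60.5). Pp1s53_125V6 had 11.8 CPM in red light and 2.58 in the dark in pubs hy2, against 0.204 in red light and 3.25 in the dark in wild type. The dark levels differed little, and the fold was 4.57 (3.26 to 6.56) in pubs hy2 and 0.0627 (0.0196 to 0.155) in wild type.

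Most genes of this kind had few reads. Pp1s173_162V6 had 47 reads in red light and 6 in the dark in pubs hy2, against 0 in red light and 39 in the dark in wild type. With the 0 set to the floor of 3 counts in that library its ratio was 93.6, and the lower bound of its counting interval was 50.2. Pp1s86_75V6 had 25 reads in red light and 1 in the dark in pubs hy2, against 4 in red light and 24 in the dark in wild type, a ratio of 137.9 (13.0 to 5880). In both, pubs hy2 in red light and wild type in the dark were the higher libraries. The opposite order was found in Pp1s282_41V6, with 6 reads in red light and 16 in the dark in pubs hy2, against 50 in red light and 8 in the dark in wild type, a ratio of 0.0552 (0.0139 to 0.209). Pp1s298_57V6 had nearly the same reads, 6 in red light and 17 in the dark in pubs hy2, against 49 in red light and 9 in the dark in wild type, a ratio of 0.0596 (0.0154 to 0.219). Pp1s4_301V6 had 28 reads in red light and 73 in the dark in pubs hy2, against 16 in red light and 0 in the dark in wild type. Set against the floor, its fold in wild type was 3.81, with a lower bound of the counting interval of 2.76. Its ratio was 0.0661, with an upper bound of 0.1015, although its level in both pubs hy2 libraries was above that in wild type. The median of all reads over the libraries was 137 for the 91 genes and 126 for the 38, against 1733 for all 18654 genes.

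Other genes passed in the same direction in both genotypes, with a ratio bounded within 2-fold by the interval on the log scale. Pp1s556_1V6 had 18.7 CPM in red light and 1.52 in the dark in pubs hy2, against 42.4 in red light and 4.16 in the dark in wild type. It was lower in pubs hy2 under both conditions, but its fold was 12.3 (8.08 to 19.6) in pubs hy2 and 10.2 (8.03 to 13.1) in wild type, a ratio of 1.21. Pp1s133_69V6 had 113.7 CPM in red light and 22.8 in the dark in pubs hy2, against 256.0 in red light and 40.6 in the dark in wild type. The folds were 4.99 (4.46 to 5.60) in pubs hy2 and 6.31 (5.83 to 6.82) in wild type. Pp1s114_139V6 had the lowest ratio of the 3 induced genes named here, 0.559 (0.511 to 0.612), with folds of 3.67 in pubs hy2 and 6.56 in wild type. Its smaller fold in pubs hy2 was beyond counting error and short of 2-fold.

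Among the reduced genes of this kind was Pp1s266_1V6, with 2.26 CPM in red light and 8.81 in the dark in pubs hy2, against 0.936 in red light and 4.04 in the dark in wild type. The folds were 0.257 (0.183 to 0.357) in pubs hy2 and 0.232 (0.138 to 0.375) in wild type. Pp1s88_47V6, a well-read gene, had 206.2 CPM in red light and 523.2 in the dark in pubs hy2, against 362.5 in red light and 1542 in the dark in wild type. Both genotypes were lower after red light, with folds of 0.394 (0.380 to 0.409) in pubs hy2 and 0.235 (0.229 to 0.241) in wild type, a ratio of 1.68. Pp1s19_224V6 had folds of 0.439 (0.382 to 0.502) in pubs hy2 and 0.262 (0.233 to 0.294) in wild type, a ratio of 1.67. With a minimum fold of 1.5 in place of 2, the ratios of Pp1s114_139V6, Pp1s88_47V6 and Pp1s19_224V6 passed the rule. For Pp1s556_1V6, Pp1s266_1V6 and Pp1s19_224V6 the exact interval of the ratio reached 2.05, 2.06 and 2.00, just past the 2-fold limit within which the interval on the log scale lay.

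Of the 100 genes with the highest mean RPKM, the ratio was above 1 in 5 and below 1 in 5 by the rule, against 8.77% and 5.06% of all 18654 genes, and the other 90 were bounded within 2-fold, against 66.0% of all genes. The gene with the highest level among those with a ratio above 1, Pp1s8_156V6, had 6419 CPM in red light and 4078 in the dark in pubs hy2, against 7800 in red light and 13930 in the dark in wild type. The difference between the genotypes was large in the dark and small in red light, where the 2 levels lay closer together. Its folds were 1.57 (1.56 to 1.59) in pubs hy2 and 0.560 (0.557 to 0.563) in wild type, a ratio of 2.81 (2.78 to 2.84). Pp1s34_442V6 had the same order of levels, with 2026 CPM in red light and 976.7 in the dark in pubs hy2, against 3166 in red light and 7403 in the dark in wild type, a ratio of 4.85 (4.75 to 4.95). Pp1s25_135V6 had 1652 CPM in red light and 1288 in the dark in pubs hy2, against 1.06 in red light and 1.99 in the dark in wild type. Its ratio of 2.42 (1.41 to 4.18) rests on 26 and 35 reads in the wild-type libraries.

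For ratios below 1, Pp1s141_102V6 had 1556 CPM in red light and 1444 in the dark in pubs hy2, against 389.5 in red light and 130.7 in the dark in wild type, a ratio of 0.362 (0.344 to 0.380). Pp1s85_11V6 had 1001 CPM in red light and 1073 in the dark in pubs hy2, against 69.7 in red light and 19.7 in the dark in wild type, a ratio of 0.264 (0.234 to 0.297). In both genes, pubs hy2 was high under both conditions and wild type was higher in red light than in the dark. Pp1s22_322V6 differed from them, with 598.6 CPM in red light and 1162 in the dark in pubs hy2, against 1277 in red light and 1062 in the dark in wild type. The pubs hy2 red light library was the one apart, with a fold of 0.515 (0.504 to 0.527) in pubs hy2 and 1.20 (1.18 to 1.23) in wild type. Genes with a ratio above 1 together took 4.95% of the reads in red light and 4.08% in the dark in pubs hy2, and 3.74% in red light and 6.95% in the dark in wild type. Genes with a ratio below 1 took 4.33% in red light and 4.08% in the dark in pubs hy2, and 5.13% in red light and 1.56% in the dark in wild type.

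**Figure D3:**
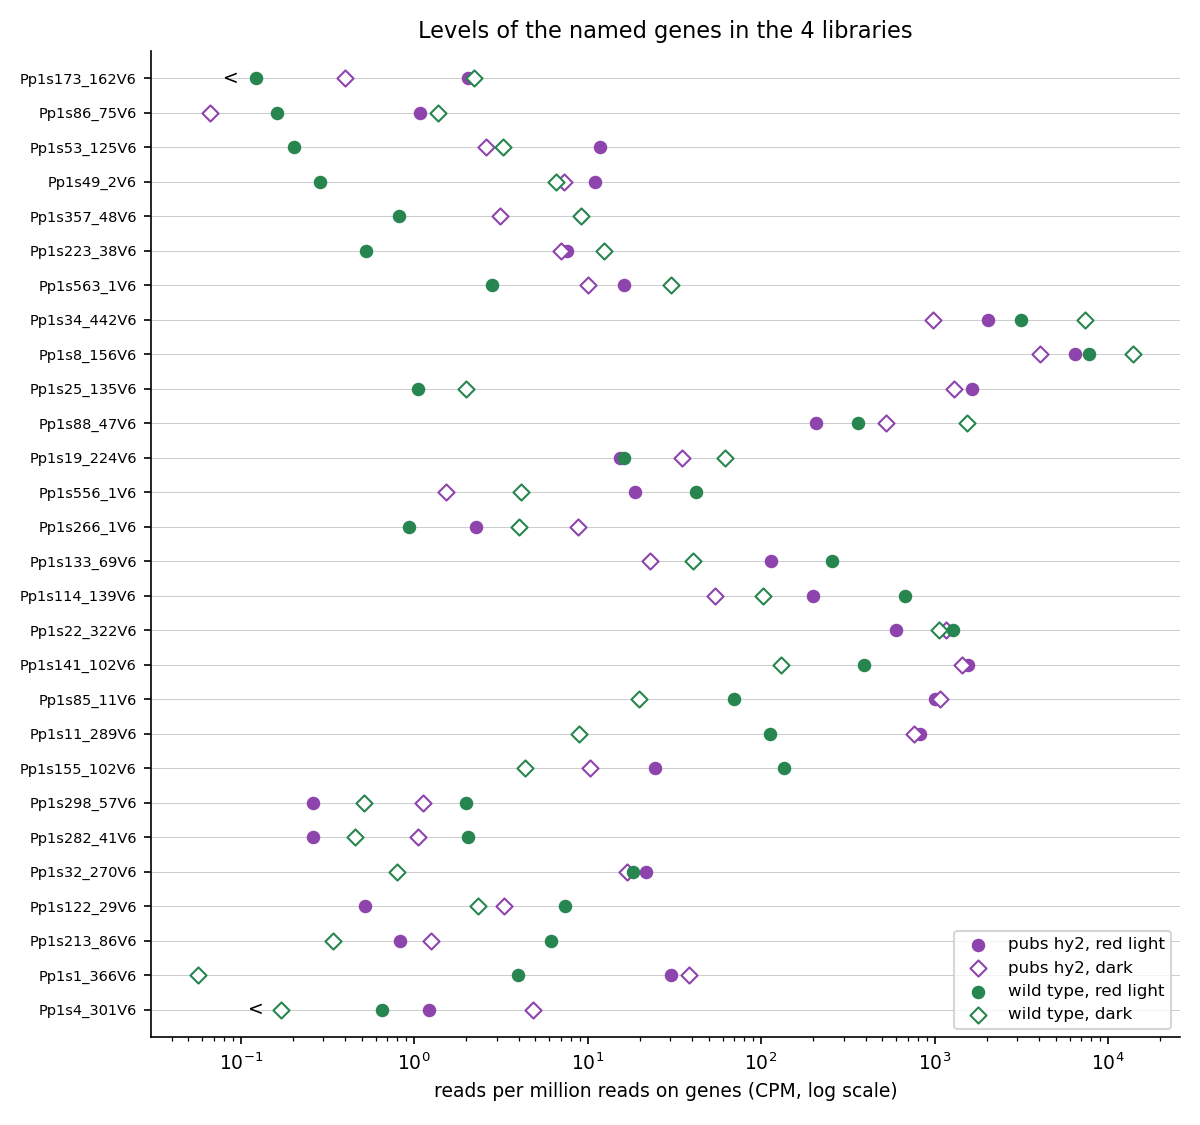
Levels of the 28 named genes in CPM on a log axis, with pubs hy2 in purple, wild type in green, filled circles for red light and open diamonds for the dark, and genes sorted by log2 ratio with the highest at the top. The mark "<" stands at a library with 0 reads, drawn at the floor of 3 counts. In Pp1s32_270V6 and Pp1s11_289V6 the purple symbols nearly coincide while the green ones lie far apart.

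The ratio varied most among weakly expressed genes, and there it leaned upwards. Mean RPKM divided the genes into 5 bins of equal size, of which the lowest (0.124 to 3.50) held 808 genes with the ratio above 1 (21.7%) and 357 below 1 (9.57%), and the median log2 ratio was 0.31. The median log2 fold in this bin was 0.08 in pubs hy2 and -0.23 in wild type. In the next bin (3.50 to 7.92) the counts were 320 and 217, and in the highest bin (28.8 and above) they were 168 (4.50%) and 160 (4.29%), with a median log2 ratio of 0.04. The SD of the log2 ratio across genes was 1.43 for the lowest bin, where the median counting error (SE) of a gene was 0.47, and 0.60 for the highest, where it was 0.07. The spread exceeded the counting error in every bin, and how much of the rest is biological and how much differs between any 2 libraries cannot be told apart without replicates. Without the lowest bin the ratio was above 1 in 828 genes and below 1 in 587.

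**Figure D4:**
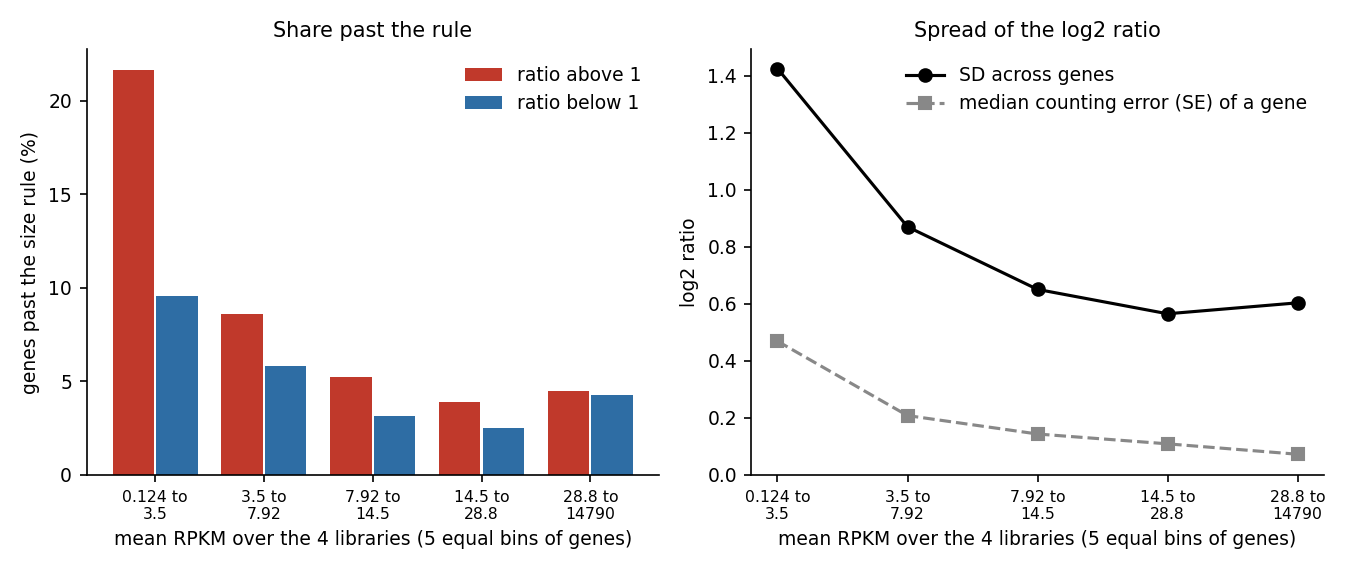
Left, the percentage of genes with a ratio above 1 (red) and below 1 (blue) past the size rule in 5 equal bins of genes by mean RPKM. Right, the SD of the log2 ratio across the genes of each bin (black) and the median counting error of a gene (grey dashed), which fall from 1.43 to 0.60 and from 0.47 to 0.07 between the lowest and the highest bin.

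Gene length went with ratios below 1 more than with ratios above 1. In the shortest of 5 equal bins (0.063 to 0.983 kb) the ratio was above 1 in 406 genes and below 1 in 356, and in the longest bin (2.63 to 15.8 kb) 274 and 110. Short genes also had fewer reads, with medians of 462 in the shortest bin and 2872 in the longest. Among genes with at least 1000 reads, the shortest bin held 86 above 1 and 86 below 1, and the longest 78 and 40. The median length was 1.67 kb for genes with a ratio above 1, 1.30 kb for genes with a ratio below 1 and 1.75 kb for all 18654 genes. Whether length or depth had a part in these counts was not tested.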

How the data were processed

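Poly-A RNA was sequenced in 4 libraries, 1 per group, from random-primed fragments amplified by PCR, per the labels' protocols. Per gene, the authors deposited estimated counts of reads, of which 95.4% to 95.6% were whole numbers, and the counts were rounded here. The authors deposited RPKM values, scaled by gene length and a library total per the file headers. A deposited fraction gives the multi-mapping share of each gene's reads. Aligner, build and annotation are not given in the sources used here. No step that keeps strand is named, so overlapping genes on opposite strands were not separated.

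Counts were scaled by library totals. The rule and the log2 folds and ratios over many genes used counts plus 0.5, while folds and ratios printed for named genes used the counts alone, with 0 set to the floor. The interval of a ratio was computed on the log scale for the rule and as the exact conditional odds ratio for named genes, and that of a fold by Clopper-Pearson, all at 95%. Intervals and the floor of 3 counts cover counting error only, since each group has 1 library. Reads carried no molecular identifiers, and copies made by PCR are not covered either. A model with the interaction of genotype and light leaves 0 residual degrees of freedom, so no test was made. Alternatives changed scaling, read minimum, fold, gene set, error and depth. Named genes were the 6 highest and 6 lowest ratios by the interval bound nearest to 1, the 3 most abundant per direction, the 3 strongest opposite folds per direction and the 3 largest wild-type folds per direction bounded within 2-fold, 28 genes in all. The members, lists and rules were chosen with earlier results of these data known. Python 3.11.15 was used with scipy 1.17.1, numpy 2.4.6, pandas 2.3.3 and matplotlib 3.10.9, with edgeR 4.0.16 (TMM) and DESeq2 1.42.0 (size factors) in R 4.3.3 for alternative scalings.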

Additional observations from a re-analysis of the deposited data

Results flagged for a closer look

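In 16 of the 28 named genes the red light folds of the genotypes lay on opposite sides of 1, each beyond its counting interval. These differences were not tested, since no group has a second library, and several of these genes were named because their folds were opposite. Values are the log2 of the pubs hy2 fold over the wild-type fold, without added counts and with 0 reads set to 3 counts. Higher after red light in pubs hy2 and lower in wild type were Pp1s86_75V6 (7.11), Pp1s173_162V6 (6.55), Pp1s53_125V6 (6.19), Pp1s49_2V6 (5.12), Pp1s357_48V6 (5.04), Pp1s563_1V6 (4.12), Pp1s34_442V6 (2.28), Pp1s8_156V6 (1.49) and Pp1s25_135V6 (1.27). Lower in pubs hy2 and higher in wild type were Pp1s1_366V6 (-6.46), Pp1s122_29V6 (-4.34), Pp1s282_41V6 (-4.18), Pp1s298_57V6 (-4.07), Pp1s4_301V6 (-3.92), Pp1s85_11V6 (-1.92) and Pp1s22_322V6 (-1.22). The fold in pubs hy2 was close to 1 for Pp1s85_11V6 (0.933), Pp1s1_366V6 (0.795) and Pp1s25_135V6 (1.28), so the opposite direction there was a small difference.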

How the results depend on the processing

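Counts are given as genes with a ratio above 1, genes with a ratio below 1, genes higher in wild type with a ratio below 1, genes lower in wild type with a ratio above 1, and genes past the rule in pubs hy2 alone. At a minimum fold of 1.5 these were 3063, 1869, 1048, 1755 and 1151, and at a minimum fold of 3 they were 773, 443, 213, 346 and 186, as a lower or higher limit must give. With at least 1000 reads, chosen after seeing the data, they were 493, 307, 252, 272 and 62, and without the lowest of 5 bins by mean RPKM, also chosen afterwards, they were 828 above, 587 below, 428 lower in wild type and 209 in pubs hy2 alone. With at least 200 reads 242 genes passed in pubs hy2 alone. The assumed variation of 0.2 gave 1051 above and 595 below, with a ratio below 1 in 36.5% of the genes higher in wild type and a ratio above 1 in 56.0% of those lower there. The 0 genes lower in wild type with a ratio below 1 became 11 at a fold of 1.5, 5 with all genes and 1 after thinning to the smallest library. The median log2 ratio of 0.07 moved with the scaling and changed sign with DESeq2 size factors (-0.0171). It was 0.0205 with TMM factors, 0.0836 from the RPKM column, 0.0568 with at least 200 reads, 0.0393 with at least 1000 reads and 0.0440 without the lowest bin. Genes with a ratio above 1 made up 56.5% to 64.6% of those past the rule under every alternative run. Pp1s25_135V6 lost its call with the assumed variation, and it, Pp1s8_156V6, Pp1s141_102V6 and Pp1s22_322V6 lost theirs at a minimum fold of 3, while Pp1s114_139V6, Pp1s88_47V6 and Pp1s19_224V6 gained one at 1.5. No paired analysis was possible because each group has 1 library. Genes with few reads limit the depth, and 3757 ratios were undecided.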

Other observations

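The ratio of folds was also computed for the 1171 genes with at least 50 reads that were left out for their multi-mapping share. Of these, the ratio was above 1 in 132 and below 1 in 145, together 23.7%, against 13.8% of the singly mapped genes. Their values depend on how shared reads were assigned. Across genes, which are not independent replicates, the Pearson correlation of the log2 red light folds of pubs hy2 and wild type was 0.240 over the 18654 genes and 0.471 over the 11995 with at least 1000 reads. The libraries behind the folds of the 2 genotypes are different ones.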
